A study of Mus musculus with 14 samples.

Results

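Butyrylation of lysine 9 of histone H3 (H3K9Bu) was compared between hearts of sham-operated mice fed a diet with 60% of its energy as fat and hearts of sham-operated mice fed 10% fat. The members are the 58137 merged regions of the authors' H3K9Bu table for these diets, out of 145601 regions in the 3 tables of the series. Of the members, 23521 overlap the promoter window of a gene, from 7500 bp upstream to 2500 bp downstream of its start, and 34616 do not (called other regions). All regions of the table were taken, but calls in its libraries brought them in. Of them, 21352 were called in the sham 10% fat library and no other, and 7878 in the sham 60% fat library and no other. Signal at gene starts was lower in the 60% fat library by a nearly even factor, with a median log2 ratio of -1.13 over 7911 regions that cover a start, but the ratio was -0.49 after division by estimated tags and -0.08 with the 10% fat library of pressure-loaded hearts in place of the sham one. Other regions fell into some lower and some higher at 60% fat, largely by which library's call brought them in. Regions inside genes of the contractile apparatus were mostly called at 10% fat alone.

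All animals were male C57BL/6J mice, 12 weeks old, and the labels name no transgene. They ate their diet for 4 days before surgery and for 1 week after it. The sham 60% fat library and the sham 10% fat library each come from a pool of 3, per the labels, so there is 1 library per side. No difference below has a replicate check, and none was tested. The series also holds transverse aortic constriction (TAC), which narrows the aorta and so loads the heart, a fat-free diet, and acetylation of the same residue (H3K9ac). The material is heart tissue with all its cell types, so fewer cells of a type and less mark per cell cannot be told apart. Of the marker lists, 11 of 15 ventricular cardiomyocyte genes and 13 of 16 endothelial genes had a measured promoter, against 1 of 10 atrial and 1 of 14 lymphocyte genes.

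Butyrylation adds a short-chain acyl group to lysine, longer than the acetyl group, and the group comes from butyryl-CoA, an intermediate of fatty acid oxidation. Acetyltransferases such as p300 can transfer longer acyl groups as well, and deacetylases and sirtuins remove them. Acetylation at lysine 9 marks nucleosomes beside active gene starts. Heart muscle draws most of its energy from fatty acids, and the nuclear receptor PPAR-alpha turns on genes of fatty acid use.

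A set of promoters shows what the compared gene starts look like. RefSeq windows (GRCm38.p6) from 250 bases before to 50 bases after a gene start lay wholly inside the gene's strongest region for 3694 of 12046 genes. The 3 highest and the 3 lowest ratios among them, leaving out shared regions and weak signals, are printed with CpG dinucleotides in capitals. They were chosen after their values were seen. The windows that stand highest are those of Rara, the retinoic acid receptor alpha (chr11:98939461-98939760, plus strand), Zcchc14, a zinc finger protein gene (chr8:121651884-121652183, minus strand), and Camk1, a calcium and calmodulin-dependent kinase (chr6:113343873-113344172, minus strand).
Rara: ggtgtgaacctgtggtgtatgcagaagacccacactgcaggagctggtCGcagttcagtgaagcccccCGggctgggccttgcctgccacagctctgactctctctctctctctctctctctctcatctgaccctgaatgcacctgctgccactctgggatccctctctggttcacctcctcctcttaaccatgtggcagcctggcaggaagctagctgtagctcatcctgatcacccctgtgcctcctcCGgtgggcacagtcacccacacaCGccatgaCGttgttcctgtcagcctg
Zcchc14: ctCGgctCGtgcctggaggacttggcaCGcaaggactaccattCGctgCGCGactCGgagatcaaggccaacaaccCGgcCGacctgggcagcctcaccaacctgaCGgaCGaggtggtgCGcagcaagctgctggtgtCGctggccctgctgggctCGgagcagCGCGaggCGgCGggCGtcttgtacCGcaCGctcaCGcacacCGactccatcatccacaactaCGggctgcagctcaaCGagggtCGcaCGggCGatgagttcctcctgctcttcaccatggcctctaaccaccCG
Camk1: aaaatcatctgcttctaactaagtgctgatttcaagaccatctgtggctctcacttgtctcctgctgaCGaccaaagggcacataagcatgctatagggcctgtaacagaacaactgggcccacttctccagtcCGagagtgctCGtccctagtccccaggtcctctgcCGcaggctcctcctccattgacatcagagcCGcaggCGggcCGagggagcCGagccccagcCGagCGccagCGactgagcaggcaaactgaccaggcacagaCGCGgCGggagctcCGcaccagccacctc

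The lowest windows belong to Zfp619, a zinc finger protein gene (chr7:39517516-39517815, plus strand), Htatsf1, a splicing cofactor (chrX:57053320-57053619, plus strand), and Hps1, a gene of lysosome-related organelle biogenesis (chr19:42779929-42780228, minus strand). Pdk4, the pyruvate dehydrogenase kinase that PPARs induce (chr6:5496229-5496528, minus strand), is added from a set of genes of heart and metabolism.
Zfp619: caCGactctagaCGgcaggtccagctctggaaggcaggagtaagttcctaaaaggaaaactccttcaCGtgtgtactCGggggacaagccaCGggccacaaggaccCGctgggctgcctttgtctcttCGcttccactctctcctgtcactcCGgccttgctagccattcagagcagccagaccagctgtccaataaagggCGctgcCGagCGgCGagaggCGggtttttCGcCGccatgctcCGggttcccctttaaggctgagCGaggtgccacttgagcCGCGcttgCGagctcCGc
Htatsf1: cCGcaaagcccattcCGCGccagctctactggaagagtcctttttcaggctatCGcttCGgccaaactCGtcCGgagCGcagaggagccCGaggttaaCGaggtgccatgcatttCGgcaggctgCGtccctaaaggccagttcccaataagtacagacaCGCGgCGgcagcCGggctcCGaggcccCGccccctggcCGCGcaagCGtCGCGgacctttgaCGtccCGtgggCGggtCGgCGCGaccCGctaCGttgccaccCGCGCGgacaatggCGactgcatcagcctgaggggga
Hps1: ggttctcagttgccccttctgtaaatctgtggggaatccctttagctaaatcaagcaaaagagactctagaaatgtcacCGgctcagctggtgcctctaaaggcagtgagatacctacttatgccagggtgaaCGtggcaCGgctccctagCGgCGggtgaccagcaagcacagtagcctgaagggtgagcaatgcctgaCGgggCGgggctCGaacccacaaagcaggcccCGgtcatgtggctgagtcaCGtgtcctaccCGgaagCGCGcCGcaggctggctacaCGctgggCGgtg
Pdk4: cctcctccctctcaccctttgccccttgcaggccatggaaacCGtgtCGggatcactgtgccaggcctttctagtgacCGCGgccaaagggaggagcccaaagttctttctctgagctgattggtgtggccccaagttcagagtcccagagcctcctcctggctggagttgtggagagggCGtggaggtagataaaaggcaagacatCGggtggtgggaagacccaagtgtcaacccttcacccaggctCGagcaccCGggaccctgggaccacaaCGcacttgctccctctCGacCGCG

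Average signal in the regions behind these windows was, in the order sham 60%, sham 10%, TAC 60% and TAC 10% fat, 49.8, 18.7, 39.0 and 33.2 for Rara. For Zcchc14 it was 54.9, 68.5, 47.4 and 45.5. For Pdk4 it was 30.2, 93.6, 17.2 and 33.4, and for Zfp619 it was 15.96, 69.0, 12.9 and 22.6. Pdk4 and Zfp619 were thus highest in the sham 10% fat library, and Rara was lowest there. The Rara window, with 5 CpG dinucleotides and no island in its region, is 1 of that gene's RefSeq starts, and its region is centred 2222 bp downstream of the start listed in the table.

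CpG content differed little between the lowest and highest ratios at these starts, except at the far upper end. The median window held 23 CpG dinucleotides among the 924 lowest ratios and 22 among the 924 highest, against 7 over all 32817 RefSeq windows. The 45 windows past 1.5-fold higher had a median of 14 and a GC box in 40% of cases, and 60% of their regions hold an island, against 23, 64.5% and 89.7% over all 3694. Windows with 3 to 5 CpG dinucleotides had a median relative log2 ratio of 0.17 (59 genes), and those with over 30 had -0.11 (822 genes). Motifs were searched on both strands without regard to overlap. The ETS core CCGGAAG was in 30.2% of windows of the lowest 924 and 21.2% of the highest, and in 8.86% of all RefSeq windows. The GC box GGGCGG was in 63.1% and 65.2% (35.6% of all), and TATAAA in 6.60% and 4.98% (13.6% of all).

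The sham 10% fat library stood apart from the other 3 libraries of the table, and the main results are therefore also given with the TAC 10% fat library in its place, a comparison that changes surgery as well. The authors' caller marked 29473 regions in the sham 60% fat library and 41348 in the sham 10% fat library, of which 21352 were called in that library alone. Estimated tags in the regions came to 3292938 and 5194261. Over all regions, the rank correlation of signal between the sham 60% fat library and the TAC 60% and TAC 10% fat libraries was 0.77 and 0.70, and with the sham 10% fat library it was -0.04. Over 34616 other regions the last value was -0.16, and over 12492 promoter regions with a CpG island it was 0.69. Regions called in a single library enter high there and low elsewhere, which lowers values over all and over other regions. Over the 16612 regions called in both sham libraries, the value between these was 0.19. There sham 60% fat had 0.76 with TAC 60% and 0.69 with TAC 10%, and sham 10% had 0.55 with TAC 10%. Points in these correlations are regions of the same libraries, and no test was made. Signal here means the deposited mean tag density of a region, on mm10.

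**Figure D1:**
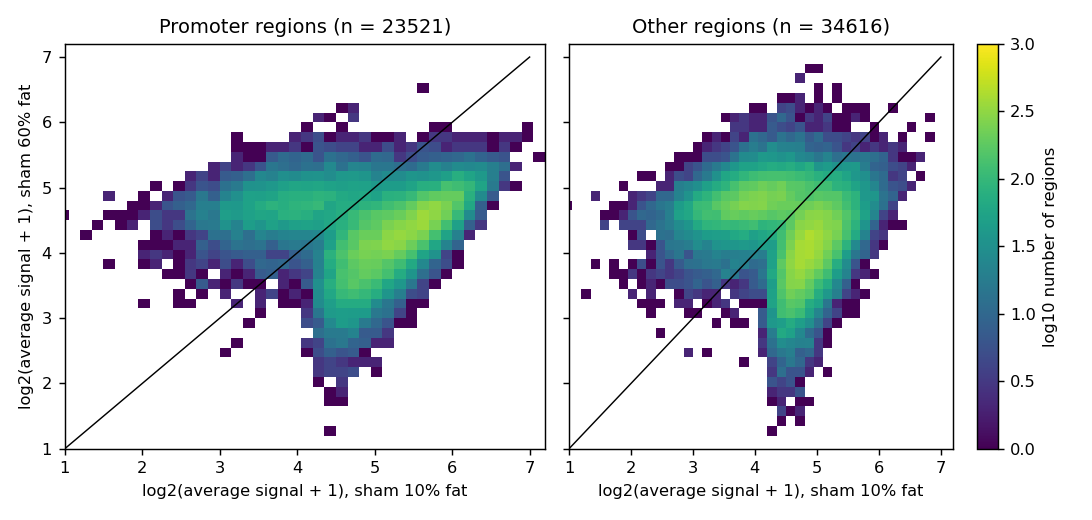
Each cell counts regions by log2(average signal + 1) in the sham 10% fat library (x) and the sham 60% fat library (y), with colour for log10 of the number of regions and a line of equal signal. Promoter regions hold a main band below the line and a second, flatter cloud above it, and in other regions both clouds are of like weight.

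Promoter signal ranked more like that of acetylation in the sham 10% fat library than in the sham 60% fat library. Across 11789 genes, the rank correlation with H3K9ac in sham hearts at 10% fat was 0.73 for the sham 10% fat H3K9Bu library, 0.53 for TAC 10%, 0.43 for sham 60% and 0.28 for TAC 60%. Against H3K9Bu of sham hearts on the fat-free diet, in another table, the values in the same order were 0.68, 0.49, 0.40 and 0.23. Median promoter signal was 1.35 times median signal of other regions in the sham 10% fat library and 0.98 times in the sham 60% fat library, with 1.12 and 1.00 in TAC 10% and TAC 60%.

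Promoter regions carried less H3K9Bu signal in the 60% fat library. Their median signal was 20.3 at 60% fat and 32.8 at 10% fat, and the median log2 ratio, with 1 added to each signal, was -0.91, a 1.88-fold lower level. Of 23521 promoter regions, 15841 (67.3%) were at least 1.5-fold lower and 3035 (12.9%) at least 1.5-fold higher. Other regions had median signals of 20.9 and 24.2 and a median log2 ratio of -0.39, with 14616 of 34616 (42.2%) lower and 9182 (26.5%) higher. Scaling between libraries is not given in the sources used here. Dividing each library by its estimated tags moved the promoter median to -0.28 and turned the other median to 0.24. With the TAC 10% fat library in place of sham 10% fat, the medians were 0.01 and 0.20.

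Regions with a CpG island, a stretch of dense CpG dinucleotides found at most housekeeping promoters, were lower at 60% fat than regions without. Promoter regions with an island had a median log2 ratio of -1.10 (41.7 at 10% fat, 19.8 at 60% fat), and 11188 of 12492 (89.6%) were 1.5-fold lower while 64 (0.512%) were higher. Promoter regions without an island had a median of -0.38, with 4653 of 11029 (42.2%) lower and 2971 (26.9%) higher. The same contrast held outside promoters, where 1247 regions with an island had a median of -1.01 and 33369 without had -0.35. Libraries with the highest and lowest island signal were sham 10% fat (median 41.7) and TAC 60% fat (15.4), with TAC 10% fat at 20.9. With that library in place of sham 10% fat the promoter medians were -0.07 with an island and 0.15 without, and after division by estimated tags -0.46 and 0.25.

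**Figure D2:**
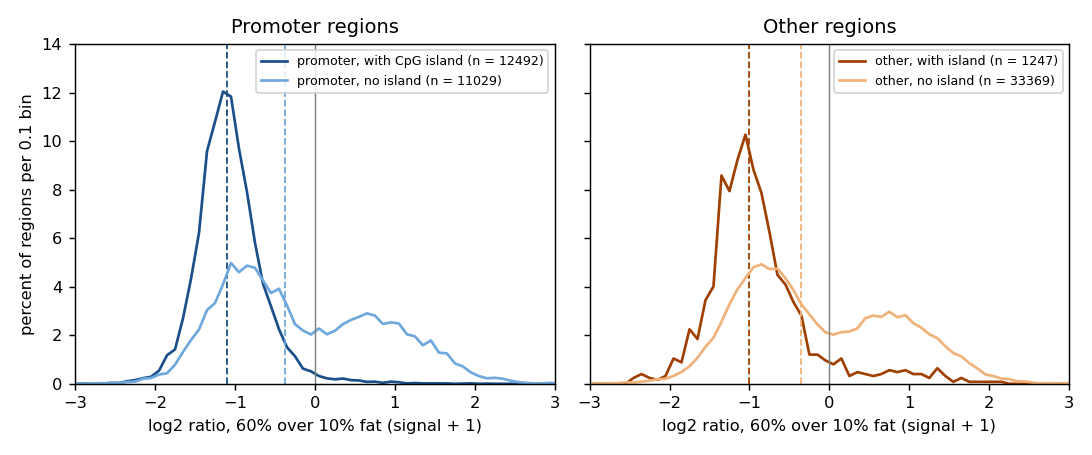
Share of regions per 0.1 bin of the log2 ratio of 60% over 10% fat, for promoter regions (left) and other regions (right), with and without a CpG island; dashed lines mark medians. Island regions form a single peak near -1.10 in promoters, and regions without an island spread over 2 humps on either side of 0. Regions called in a single sham library lie mostly on that library's side of 0.

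After centring on the median of each class, 5876 promoter regions (25%) were 1.5-fold higher and 2006 (8.53%) 1.5-fold lower, and 12417 other regions (35.9%) were higher and 8008 (23.1%) lower. The 5th and 95th percentiles of the centred ratio were -0.70 and 2.15 in promoters and -1.12 and 1.90 in other regions. The lower tail among promoters was thus short and the upper tail long.

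The difference was deepest at the gene start. Regions centred within 500 bp upstream of the nearest listed start had median signals of 38.9 at 10% fat and 17.4 at 60% fat and a median log2 ratio of -1.21. Regions centred up to 500 bp downstream had 42.7 and 19.8, a ratio of -1.11. At 1000 to 2500 bp downstream the signals were 22.7 and 22.5 and the ratio -0.12, and at 2500 to 5000 bp it was 0.02. Among listed regions, the sham 60% fat signal at the start was thus below that of the flanks, whereas in the sham 10% fat library the start was highest. Calls decide which regions are listed, so this is not a separate result from the calls. In the 500 bp upstream, 40.8% of regions were called at 60% fat and 97.8% at 10% fat. At 1000 to 2500 bp downstream the shares were 59.7% and 57.6%. Beyond 100000 bp the median was -0.54, and among 8183 regions with no gene listed it was -0.68. The pair after TAC, which shares no library with the sham pair, ran from -0.49 at the 500 bp upstream to -0.08 at 2500 to 5000 bp. With the TAC 10% fat library in place of sham 10% fat the ratio was -0.11 in the 500 bp upstream and 0.22 at 2500 to 5000 bp, and after division by estimated tags -0.58 and 0.65.

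**Figure D3:**
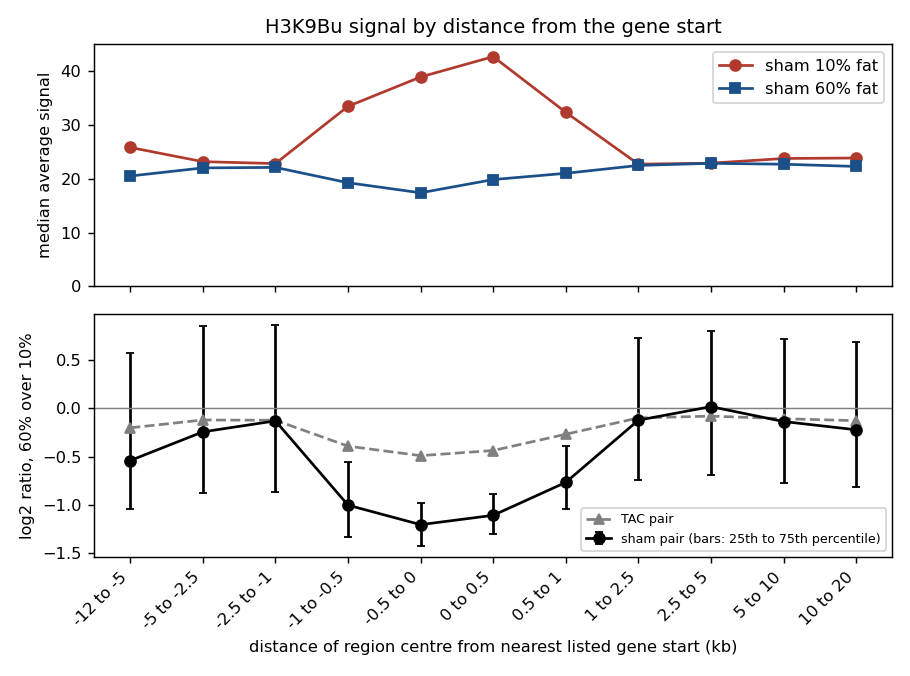
Median average signal of both sham libraries (top) and median log2 ratio of 60% over 10% fat (bottom, with the 25th to 75th percentile for the sham pair and the TAC pair as triangles) by distance of the region centre from the nearest listed gene start, in kb. Over the listed regions, which calls brought in, the sham 10% fat line rises to 42.7 at the start while the sham 60% fat line dips to 17.4.

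Where a gene's region covers its start, the shift was close to the same from gene to gene. Such regions, taken as the strongest per gene, numbered 7911, of which 6819 hold an island. Their median signals were 21.9 at 60% fat and 48.2 at 10% fat, a 2.18-fold difference, and the TAC 10% fat median was 23.2. Of the 7911, 7502 (94.8%) were at least 1.5-fold lower and 30 (0.379%) higher. With the TAC 10% fat library in place of sham 10% fat the median log2 ratio was -0.08, with 124 lower and 45 higher, and after division by estimated tags it was -0.49. The central 90% of log2 ratios lay between -1.57 and -0.58. After centring, 333 (4.21%) were 1.5-fold higher and 141 (1.78%) lower. Among 12046 genes taken by their strongest region anywhere in the promoter window, 5556 had that region away from the start, and their ratios ran more widely, from -1.54 to 0.78 at the same percentiles.

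Calling by the authors' software split along the same lines, which is not a separate result, since calls decide which regions are listed. Other regions called at 10% fat alone had log2 ratios from -1.73 to -0.31 (5th to 95th percentile). Those called at 60% fat alone had 0.29 to 1.87, and those called in both a median of -0.35. Of other regions, 15090 were called at 10% fat and not at 60%, 9646 at 60% and not at 10%, 7046 in both and 2834 only after TAC. Of promoter regions the counts were 9646, 3215, 9566 and 1094. Promoter regions called at 60% fat alone held an island in 3.51% of cases, against 55.3% of those called at 10% fat alone and 72.9% of those called in both.

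Regions called at 60% fat alone met H3K9ac calls and calls on the fat-free diet less often than regions called at 10% fat alone, and TAC calls of the same table more often. Among other regions, those called at 60% fat alone overlapped an H3K9ac call of the sham 60% fat hearts in 9.93% of cases and an H3K9Bu call of sham hearts on the fat-free diet in 14.3%. Those called at 10% fat alone did so in 41.5% and 64.0%, and those called in both in 67.7% and 84.5%. In promoters the shares with an H3K9ac call at 60% fat were 37.9%, 89.6% and 97.0% in the same order. Within the H3K9Bu table, other regions called at 60% fat alone were also called in 29.95% of cases in the TAC 60% fat library and in 21.0% in TAC 10%, against 2.21% and 7.93% of those called at 10% fat alone.

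The other regions farthest apart were short. The highest centred ratio was in a 242 bp region on chromosome 11 (96768885 to 96769127, as deposited, mm10) listed with Skap1 and Snx11, with signals of 28.8 at 60% fat and 1.75 at 10% fat. Its centred log2 ratio was 3.83, with a 95% counting interval of 2.21 to 5.06. The next was on chromosome 7 (101833154 to 101833348), listed with Inppl1, a lipid phosphatase of insulin signalling, and Folr2, with 32.8 and 2.83. None of the 5 highest overlapped an H3K9ac call of either sham library. The TAC 10% fat signal in these 5 ran from 15 to 28.6, above the sham 10% fat signal in each, which ranking by the ratio favours. The lowest, on chromosome 4 (40869036 to 40869263), had 2.43 at 60% fat and 28.0 at 10% fat, with no gene listed. Intervals are exact binomial (Clopper-Pearson) ones from estimated tags and cover counting error only.

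The longest regions differed little from the class medians. A region of 7876 bp inside Bcl2l1, an inhibitor of apoptosis, had signals of 39.6 and 52.8 at 60% and 10% fat and a centred ratio of -0.01 (-0.11 to 0.08). A region of 7528 bp inside Zbtb16, a transcriptional repressor that glucocorticoids induce, had 46.5 and 65.6 (-0.10, from -0.19 to 0.00). A promoter region of 6288 bp centred upstream of Neat1, the long noncoding RNA of paraspeckles, had 39.9 and 72.5 (0.07, from -0.04 to 0.17).

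The X chromosome differed between the libraries. In regions without promoter or island, the median X signal was 0.94 times the autosomal median in the sham 10% fat library, 0.56 times in sham 60%, 0.65 in TAC 10% and 0.50 in TAC 60%. In the 4 H3K9ac libraries at these diets the value ran from 0.88 to 0.92. In promoter regions with an island the X value was 0.70 in sham 10%, 0.59 in sham 60%, 0.61 in TAC 10% and 0.55 in TAC 60%, and 0.62 to 0.65 for H3K9ac. Promoter regions on X had median signals of 11.4 at 60% fat and 28.0 at 10% fat, and a log2 ratio of -1.29, against -0.90 on autosomes.

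Genes were then ranked by the strongest region in their promoter window. Of 13332 genes with such a region, 12046 passed a filter on mean signal, and 4559 of them share their region with another gene. Their median log2 ratio was -1.07, and values below are relative to it. For 5556 genes the strongest region does not cover the start. A start value below is a gene's ratio in a region that covers its start, relative to the median of such regions (-1.13). On that scale 1397 genes (11.6%) were 1.5-fold higher and 309 (2.57%) lower. Regions of the 1397 hold an island in 35.1% of cases, against 9476 of the 12046 genes. The 11.6% is thus low as a background for lists with few islands. As deposited, 363 (3.01%) were higher and 10295 (85.5%) lower. With the TAC 10% fat library in place of sham 10% fat, 310 (2.57%) were higher and 156 (1.3%) lower, after a shift of -0.06.

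The highest ranked promoters were marked by low signal in the sham 10% fat library. Pvr, the poliovirus receptor and a cell adhesion molecule, had signals of 50.8 at sham 60%, 13.5 at sham 10%, 41.6 at TAC 60% and 39.8 at TAC 10% fat, a relative log2 ratio of 2.90 (2.25 to 3.60). Adcy6, an adenylyl cyclase of heart muscle that answers beta-adrenergic receptors, had 56.6, 16.5, 44.3 and 33.2 (2.78). Ptprb, a phosphatase of endothelial cells, had 51.9, 15.1, 55.4 and 42.1 (2.78). Id3, an inhibitor of basic helix-loop-helix factors, had 50.9, 15.2, 48.5 and 39.1 (2.75).

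In each of these 4 the sham 10% fat library alone was low and the other 3 lay together. Crip2, a LIM-domain protein gene of the heart, stood at 2.74, and Brd3, a bromodomain reader of acetylated histones, at 2.64. The remaining 4 were Cdc42se2, a small effector of the GTPase Cdc42 (2.88), Gps1, a subunit of the COP9 signalosome (2.84), Zfp316 (2.74) and Enpp5 (2.70). Sham 10% fat was the lowest of the 4 libraries in 10 of 10, from 13.5 to 24.2, with the other 3 libraries between 28.8 and 75.8. Ranking by this ratio favours a low sham 10% fat signal, so its lowest place is no separate result. None of the 10 regions holds an island or covers the start, and with TAC 10% fat in place of sham 10% fat their ratios ran from 0.35 to 0.87. Start values, where measured, were -0.08 at Pvr, -0.01 at Id3, 0.50 at Adcy6, 0.47 at Crip2, -0.21 at Zfp316 and -0.11 at Enpp5.

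The lowest ranked promoters showed the reverse pattern. Pyroxd1, an oxidoreductase, had 12.7 at sham 60%, 65.8 at sham 10%, 16.3 at TAC 60% and 24.0 at TAC 10% fat, a relative log2 ratio of -1.22 (-1.85 to -0.63). Carm1, an arginine methyltransferase and coactivator, had 11.4, 53.1, 12.9 and 21.3 (-1.05). Sham 10% fat was the highest library in 10 of 10, from 48.0 to 69.0, with the others between 7.92 and 24.0. The ranking favours this place too. A further 7 were Xrcc6bp1, the paraspeckle protein gene Nono on X, Mterfd3, the octamer-binding factor gene Pou2f1, the kinetochore gene Nuf2, Vkorc1l1 and Zfp619, from -1.15 to -0.98. Of the 10 regions, 9 hold an island. With TAC 10% fat in place their ratios ran from -0.81 to -0.21.

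Genes were also counted by list. As deposited the median of every one of the 36 lists with at least 4 measured genes lay below 0, and 23 of the 36 lay above 0 on the relative scale, which is used below. Of 20 measured genes of fatty acid oxidation, 1 was 1.5-fold higher (all genes 11.6%) and 0 lower (2.57%). Their median of -0.06 turned to 0.04 with the TAC 10% fat library in place of sham 10% fat. The 1 higher gene was Acadm, the medium-chain acyl-CoA dehydrogenase, at 0.99 (signals 20.5 and 21.7), and the lowest was Eci2, an enoyl-CoA isomerase, at -0.38 (19.9 and 55.9). Of 18 PPAR target and lipid handling genes, 3 were higher (all genes 11.6%) and 0 lower (2.57%), with a median of 0.13, which was 0.18 with the TAC 10% fat library. They were Lipe, hormone-sensitive lipase, at 1.56 (start value 0.09), and the fatty acid binding protein gene Fabp4 at 1.23. The mitochondrial uncoupling protein gene Ucp3, at 0.61 (start value 0.98), was also among them. Of 16 start values in the list, 1 was 1.5-fold higher (4.21% of all).

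At Pdk4 and Acot1, a cytosolic acyl-CoA thioesterase, the relative ratios were -0.53 (-0.85 to -0.22) and -0.54 (-1.14 to 0.04). At Ppara, which encodes PPAR-alpha, the ratio was -0.43 (20.6 and 59.9), with a start value of -0.11. Pdk4 was at -0.48 and Ppara at -0.45 in the TAC pair, and at -0.08 and 0.14 with the TAC 10% fat library in place of sham 10% fat. Angptl4, a PPAR-induced inhibitor of lipoprotein lipase, had 32.6 at sham 60%, 59.7 at sham 10%, 25.7 at TAC 60% and 29.6 at TAC 10% fat (0.21, from 0.05 to 0.37). Its relative H3K9ac ratio in sham hearts was 0.59, with signals of 78.8 at 60% fat and 54.4 at 10% fat. Angptl4 was thus 1 of the 18 genes (0.152% of 11824) past 1.5-fold higher H3K9ac at 60% fat on the relative scale. It passed narrowly, after subtraction of a shift of -0.06 over all H3K9ac promoters.

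Of 21 genes of the TCA cycle and pyruvate entry, 0 passed 1.5-fold either way (median -0.07, turning to 0.06 with the TAC 10% fat library). Oxidative phosphorylation had 1 of 21 higher (all genes 11.6%), Cox7a1, a cytochrome oxidase subunit, at 1.84 (start value -0.08). Of 16 genes of lipogenesis and sterol synthesis, 1 was higher (all genes 11.6%) and 0 lower (2.57%). The fatty acid synthase gene Fasn was at 0.41, with a start value of -0.29. The lipogenic regulator Srebf1 was at -0.54 and the desaturase gene Scd1 at -0.26. The list's median of 0.17 turned to -0.05 with the TAC 10% fat library. Glucose uptake and glycolysis had 2 of 21 higher (all genes 11.6%) and 2 lower (2.57%). Tpi1, triose phosphate isomerase, was at 1.98 (start value 0.32) and the glucose transporter gene Slc2a1 at -0.71 (start value -0.65).

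Genes of fasting and glucocorticoid response had a median of -0.13 with 5 of 18 above 0, which became 0.00 with the TAC 10% fat library. Ddit4, an inhibitor of mTORC1, was the 1 of them 1.5-fold higher, at 1.08, and its ratio turned to -0.02 with that library. Klf15, a glucocorticoid-induced regulator of amino acid and lipid use, was at 0.29 (35.1 and 61.0).

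Endothelial marker promoters were higher than the typical gene. Of 13 measured, 6 (background 11.6%) were 1.5-fold higher and 0 lower, with a median of 0.49, which was 0.36 with islands centred apart, 0.17 over regions that cover the start and 0.03 with the TAC 10% fat library. Pecam1, an adhesion molecule of endothelial junctions, had 31.8 at sham 60%, 35.6 at sham 10%, 28.3 at TAC 60% and 22.8 at TAC 10% fat. Its ratio was 0.91, with a start value of -0.09. Egfl7 was at 0.85, the transcription factor gene Sox18 at 0.82, the VE-cadherin gene Cdh5 at 0.80, the claudin gene Cldn5 at 0.77 and Robo4 at 0.64. Flt1, a VEGF receptor, was lowest at -0.17. The summed signal of the list was 349.9 at 60% fat and 537.7 at 10% fat, and only 5 of the 13 regions hold an island. Of 10 start values 1 was 1.5-fold higher (4.21% of all).

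Among lists with at least 4 measured genes, adipocyte markers had the highest median, 0.61, with 4 of 6 measured genes 1.5-fold higher against 11.6% of all genes. With the TAC 10% fat library it was 0.31, and in the TAC pair 0.37. The 4 were Lipe, with 38.1 at sham 60%, 26.7 at sham 10%, 28.5 at TAC 60% and 23.9 at TAC 10% fat, Fabp4, which endothelial cells of the heart also express, the adipogenic factor gene Cebpa (0.63) and Gpd1 (0.60). Lipe was above its 10% fat partner under either 10% fat library. Pparg, the master regulator of adipocytes, was at 0.52, and Cidec, the 1 of the 6 below 0, was at -0.23. Summed signal over the 6 was 183.7 at 60% fat and 237.0 at 10% fat. Of the 6 regions 3 hold an island, and of 4 start values 1 was 1.5-fold higher (4.21% of all). The defining genes Adipoq, Lep, Plin1, Cidea, Retn, Ucp1 and Adrb3 had no measured promoter, and the part of adipose tissue in these values was not tested.

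**Figure D4:**
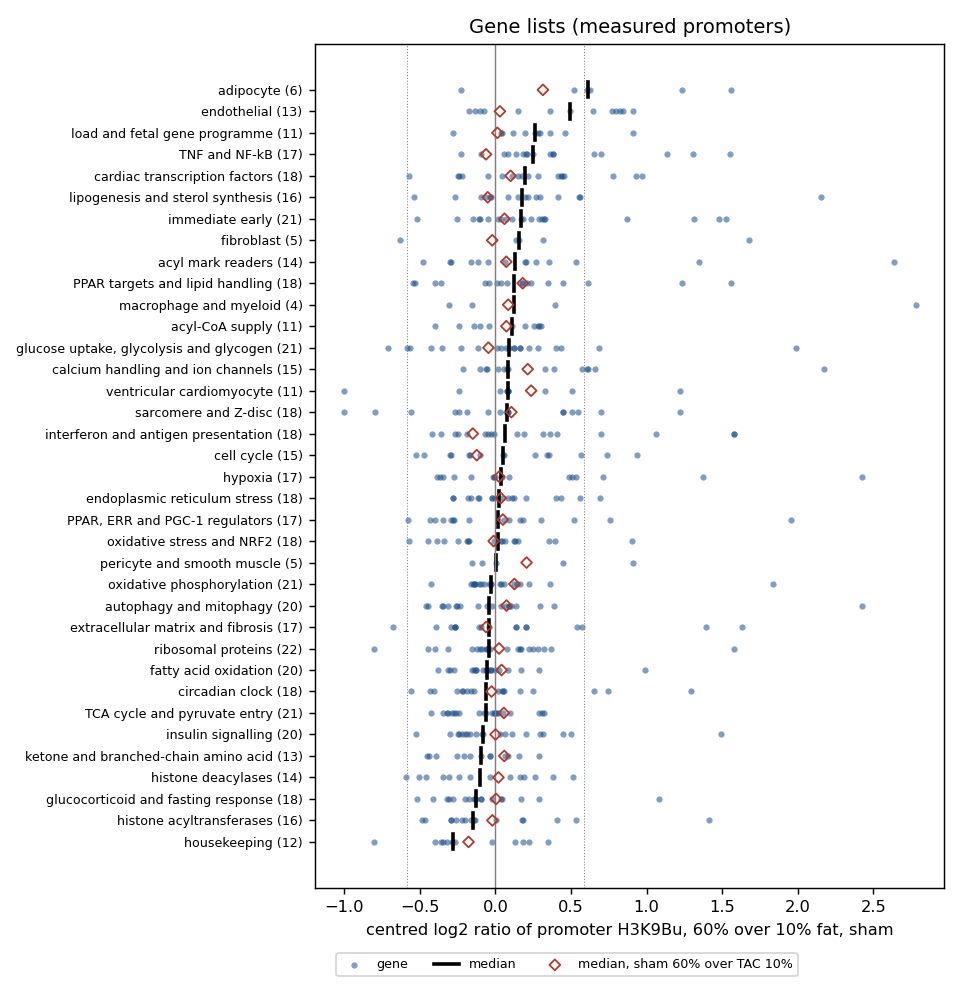
Relative log2 ratio of promoter H3K9Bu, 60% over 10% fat in sham hearts, for each measured gene (points) of the 36 lists with at least 4 measured genes, with the list median (bar) and the median with the TAC 10% fat library in place of sham 10% fat (diamond); dotted lines mark 1.5-fold. Adipocyte and endothelial lists stand highest with medians of 0.61 and 0.49, housekeeping genes lowest at -0.28, and the diamonds lie closer to 0 in most of the extreme lists.

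Inflammatory signalling genes of TNF and NF-kB had 5 of 17 higher (all genes 11.6%) and 0 lower (2.57%). Their median of 0.25 turned to -0.06 with the TAC 10% fat library. Of the 17 regions 10 hold an island, and of 13 start values 2 were 1.5-fold higher (4.21% of all). Nfkbie, an inhibitor of NF-kB, was highest at 1.55, the adhesion molecule gene Icam1 stood at 1.31 and the TNF receptor gene Tnfrsf1b at 1.14. Of 21 immediate early genes, 4 were higher against 11.6% of all genes, and 0 lower (median 0.17, and 0.06 with the TAC 10% fat library), namely Egr3 (1.53), Fosl1 (1.48), Nr4a1 (1.31) and Btg2 (0.87). Egr3 turned to -0.08 with the TAC 10% fat library. Of 11 start values of immediate early genes, 0 were 1.5-fold higher. Macrophage markers had 4 of 16 measured, with Laptm5 at 2.78 (42.5, 12.2, 32.1 and 25.8 in the order sham 60%, sham 10%, TAC 60% and TAC 10% fat) and Cd68 at -0.31.

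Contractile genes spread in both directions. Of 18 sarcomere and Z-disc genes, 2 were higher, near the share over all genes (11.6%), and 2 lower (all genes 2.57%). Their median of 0.07 turned to -0.21 with islands centred apart and was 0.11 with the TAC 10% fat library. Ttn, the giant spring protein titin, had 9.71 at sham 60%, 43.9 at sham 10%, 6.18 at TAC 60% and 11.2 at TAC 10% fat (-1.002, from -1.65 to -0.42), with sham 10% fat alone high. The cardiac actin gene Actc1 was at -0.80 (10.2 and 39.7). Myl2, the ventricular regulatory light chain, was at 1.22 (24.4 and 21.9) and Myom1, of the M-band, at 0.70. Myh6, the main myosin heavy chain of the adult mouse heart, was at 0.03 (17.6 and 37.1).

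Of 15 genes of calcium handling and ion channels, 4 were higher against 11.6% of all genes, and 0 lower (median 0.08, and 0.21 with the TAC 10% fat library). Only 8 of the 15 regions hold an island, and of 7 start values 1 was 1.5-fold higher (4.21% of all). The highest was Hrc, a calcium-binding protein of the sarcoplasmic reticulum, at 2.17 (start value 0.66). Its signals were 45.9, 20.8, 30.3 and 33.3 in the same order of libraries. The potassium channel genes Kcnq1 and Kcnh2 stood at 0.66 and 0.61, and Casq2, a calcium store protein, at 0.61. Of 18 cardiac transcription factor genes, 3 were higher against 11.6% of all genes, and Tead1 was lowest at -0.57. The 3 were Srf (0.97, start value 0.05), Nfatc1 (0.93) and Tbx20 (0.77). Of 10 start values in that list, 0 were 1.5-fold higher. The load and fetal gene programme had 10 of 11 above 0 with a median of 0.26, of which 1, the calcineurin-responsive factor gene Nfatc2, passed 1.5-fold (0.91). Its median in the TAC pair was -0.24, and with the TAC 10% fat library in place of sham 10% fat 0.01.

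Enzymes of the mark itself were near or below the typical promoter. Of 16 histone acyltransferase genes, 10 were below 0 and 1 was 1.5-fold higher (all genes 11.6%). Their median of -0.15 was -0.02 with the TAC 10% fat library, with 8 of the 16 above 0. Kat8 was at -0.49, Kat6b at -0.47, the CBP gene Crebbp at -0.22 and the p300 gene Ep300 at -0.16 (22.3 and 53.5), while Kat2a, the GCN5 enzyme, was at 1.41 in a region 7500 bp upstream of its start. Of 14 deacylase genes, 1 was lower (all genes 2.57%), the mitochondrial sirtuin gene Sirt4 at -0.59. Hdac3 was highest at 0.51 (list median -0.10, turning to 0.02 with the TAC 10% fat library). Housekeeping genes had the lowest median, -0.28 (-0.18 with the TAC 10% fat library), with 4 of 12 above 0. The ribosomal stalk gene Rplp0 was at -0.80 (17.9 and 68.2) and Gapdh at 0.22.

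Inside genes, outside the promoter window, the contractile lists looked unlike the background. Of 23438 in-gene regions, 39.6% were called at 10% fat alone, 30.5% at 60% fat alone and 21.3% in both. In ventricular cardiomyocyte genes 53 of 68 regions (77.9%) were called at 10% fat alone and 6 (8.82%) at 60% fat alone. In sarcomere genes the counts were 67 and 11 of 94, in calcium handling genes 107 and 27 of 164, and in cardiac transcription factor genes 67 and 12 of 110. Some genes are in more than 1 of these lists. Without the gene that holds most regions of each list, the share called at 10% fat alone was 76.4%, 75%, 65.2% and 62.0% in the same order.

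Median signal in the in-gene regions of the ventricular list was 13.8 at sham 60%, 25.8 at sham 10%, 8.31 at TAC 60% and 12.3 at TAC 10% fat, against 21.9, 23.7, 16.6 and 17.9 over all in-gene regions. These genes were thus above the background in the sham 10% fat library and below it in the other 3. With 53 of the 68 regions called at 10% fat alone, these medians largely restate the calls. Of the 68 regions, 40 overlapped an H3K9ac call of the sham 10% fat hearts, against 35.6% of all. The L-type calcium channel gene Cacna1c had 17 of 20 regions called at 10% fat alone and 0 at 60% fat alone. Myocd, a coactivator of serum response factor, had 15 of 17 and 1, and Camk2d, a calcium-dependent kinase of heart muscle, 19 of 29 and 5.

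**Figure D5:**
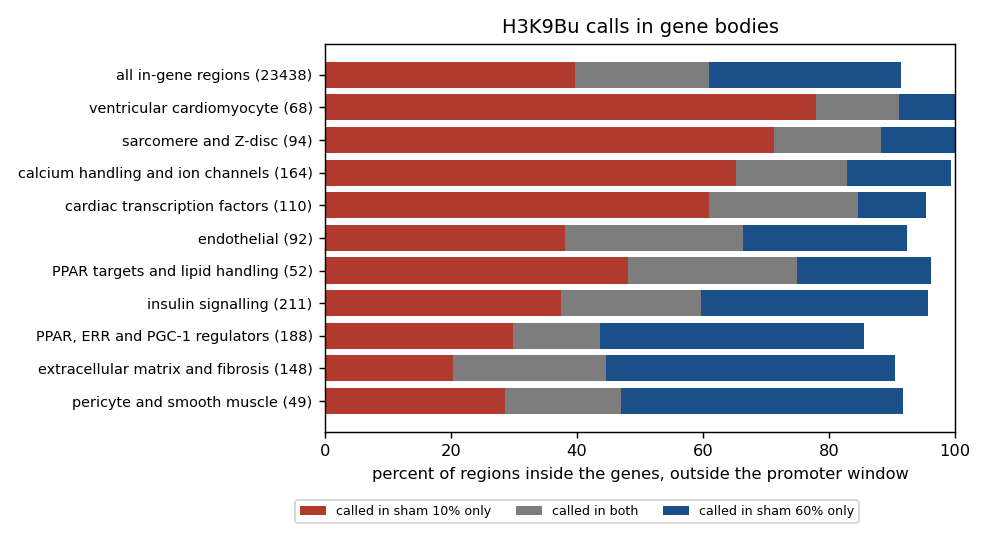
Share of H3K9Bu regions inside genes and outside the promoter window that were called in the sham 10% fat library alone, in both sham libraries or in sham 60% fat alone, for all such regions and for 10 gene lists, with the number of regions in parentheses; the rest were called only after TAC. The share called at 10% fat alone is 77.9% in ventricular cardiomyocyte genes, 39.6% over all regions and 20.3% in extracellular matrix genes. In pericyte and smooth muscle genes it is 28.6%, and 57.9% without Mylk.

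In-gene regions of extracellular matrix genes were called more often at 60% fat alone, and a single collagen locus held most of these. In extracellular matrix genes 68 of 148 in-gene regions (45.9%) were called at 60% fat alone and 30 (20.3%) at 10% fat alone. Without Col4a1 and Col4a2 the counts were 22 and 18 of 62 (35.5% and 29.0%), against 30.5% and 39.6% over all in-gene regions. The basement membrane collagen gene Col4a2 had 32 of 56 and 7, with median signals of 28.5 at sham 60%, 19.1 at sham 10%, 25.6 at TAC 60% and 22.3 at TAC 10% fat. Here the sham 10% fat library was the lowest of the 4, in regions mostly called at 60% fat alone. The smooth muscle kinase gene Mylk had 18 of 30 and 3. Without Mylk, the pericyte and smooth muscle list had 4 of 19 (21.1%) at 60% fat alone and 11 (57.9%) at 10% fat alone. The clock gene Per2 had 12 of 16 and 0, while Rora, of the same list, had 5 of 26 and 15.

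The sham pair and the TAC pair share no library, and their relative promoter ratios had a Pearson correlation of 0.55 and a rank correlation of 0.49 across 12046 genes, which are not independent replicates. Of the 1397 genes higher in the sham pair, 1249 (89.4%) lay above 0 in the TAC pair and 400 (28.6%) were 1.5-fold higher there, against 4.8% of all genes. Of the 309 lower, 225 (72.8%) lay below 0 and 31 (10.0%) were 1.5-fold lower, against 2.56% of all. Against the H3K9ac pair in the same sham diets the correlation was 0.19 across 11824 genes. On the relative scale, 18 genes there (0.152%) were 1.5-fold higher at 60% fat and 12 (0.101%) lower. Of the 1252 measured genes higher in the sham H3K9Bu pair, 14 (1.12%) were 1.5-fold higher in H3K9ac, and of the 309 lower ones 0 were 1.5-fold lower.

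Genes far from the median in both H3K9Bu pairs were picked by the smaller of their ratios. Ttc7 led those higher, with 56.4 at sham 60%, 18.8 at sham 10%, 63.6 at TAC 60% and 39.4 at TAC 10% fat and relative ratios of 2.60 in the sham pair and 1.11 in the TAC pair. Map4k2, a kinase of stress signalling, had 2.42 and 1.00, and Fut7, a fucosyltransferase of selectin ligands, 2.44 and 0.97. Both 60% fat libraries were above both 10% fat libraries at these 3 genes, an order that picking by both ratios favours. Among the lower genes, Oaz1, the antizyme that limits polyamine synthesis, had 20.1, 79.3, 14 and 35.8 in the same order (-0.86 in both pairs), in a region shared with another gene. Htatsf1 had -0.93 and -0.73. Both 60% fat libraries were below both 10% fat libraries at Oaz1 and Htatsf1. The picking favours this order too, so neither order is a separate result. Of the 10 lower regions, 10 hold an island, and of the 10 higher regions, 0. None of the 10 higher regions covers the start, and start values were -0.11 at Ttc7 and -0.08 at Map4k2.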

How the data were processed

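Nuclei from pooled hearts were sonicated and precipitated for H3K9Bu or H3K9ac, per the labels' protocols. BWA, SICER and the mm10 build are named in the submitters' processing notes, without versions or roles; how inputs entered and how libraries were scaled are not given in the sources used here. Average and peak values are a deposited signal, the mean and highest tag density over a region merged from 4 libraries, per the file headers. The authors also deposited a log2 ratio (equal to the recomputed one in 58137 of 58137 regions within 1e-06), a presence mark, and an estimated tag number that equals the larger average times length over 224 in 58137 of 58137. That relation gave tags per library, 2543841 to 5194261 in the table's regions; total depth is unknown.

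Ratios are log2(signal + 1), as deposited and centred on the median of promoter or other regions, or of genes. A gene took the region of highest mean signal over 4 libraries in its window, leaving out those under the 25th percentile. Of 15472 symbols, 15002 matched RefSeq (GRCm38.p6), which gave names and promoter sequences. Python 3.11.15, numpy 2.4.6, pandas 2.3.3, scipy 1.17.1 and statsmodels 0.14.6 were used, and the steps were checked on simulated data. Overlap meant at least 1 bp.

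With 1 library per group no test was made. Named genes were the 10 highest and lowest relative ratios among well-marked promoters on autosomes or X without predicted or small RNA names, the extremes of each list, a set of 23 heart and metabolism genes, the 5 highest and lowest other regions, the 5 longest regions, and the 10 genes farthest from 0 with 1 sign in both H3K9Bu pairs; some are not reported here. Of the 23, 18 were measured; Myh7 was under the filter and Nppa, Nppb and Adipoq had no promoter region. Members, 41 lists and rules were chosen with earlier results of these data known. Alternatives were scaling to tags, peak signal, a pseudocount of 5, filtering, calls in both libraries, a lowess trend (fraction 0.3), autosomes alone, a 2000 bp promoter and the TAC 10% fat library; centring islands apart, start-covering regions, that library for classes, starts, distances, lists and genes, tag scaling for classes, starts and distances, leaving out a list's largest gene, and 1 gene per region were chosen after seeing the data. The input libraries were not analysed here.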

Additional observations from a re-analysis of the deposited data

Results flagged for a closer look

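Relative to the median gene, the promoters of the load and fetal gene programme lay on opposite sides after the 2 operations. Their median relative log2 ratio of 60% over 10% fat was 0.26 in sham hearts and -0.24 after TAC, over the same 11 genes, with 10 above 0 in the sham pair and 4 in the TAC pair. The medians subtracted were -1.07 in the sham pair and -0.44 in the TAC pair. As deposited the list median was -0.81 in the sham pair, so the relative value above 0 was no higher signal at 60% fat. The difference between the operations was not tested, since each library stands alone, and with the TAC 10% fat library in place of sham 10% fat the sham value was 0.01.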

How the results depend on the processing

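No paired analysis was possible because each group has 1 library, and no replicate could be left out. With TAC 10% fat in place of sham 10% fat, which changes surgery too, the median log2 ratio turned to 0.011 in promoters and 0.20 in other regions, and centred counts past 1.5-fold fell to 1828 higher and 1031 lower in promoters and 2841 and 2940 in other regions. Ddit4, Egr3, Lck and Meox1 turned to -0.024, -0.078, -0.062 and -0.021, while of 125 named genes 58 left their counting interval and 63 did not. Dividing by estimated tags gave medians of -0.28 in promoters and 0.24 in other regions, a turn in the latter. Medians in promoters and other regions were -0.89 and -0.32 with peak signal, -0.79 and -0.34 with a pseudocount of 5, -0.89 and -0.14 with the filter on mean signal, and -0.95 and -0.35 over regions called in both libraries, and the promoter median was -1.002 within 2000 bp of a start. Centred promoter regions 1.5-fold lower numbered 3153 with peak signal, 1123 with the pseudocount of 5, 3601 after the lowess trend and 3282 with islands centred apart. Over regions called in both, which are fewer by construction, the counts were 1527 higher and 212 lower in promoters and 809 and 931 in other regions. Autosomes alone changed neither median beyond its interval. Of 36 lists, 23 had a median above 0 after centring and 0 as deposited; the other settings gave 19 to 25. The correlation with the TAC pair was 0.55 with 1 gene per region. Among named genes, 10 of 125 left their interval with peak signal and 0 with the pseudocount of 5. The cause of each move was not tested. Short regions hold few tags, which limits single genes.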
